A study of Mus musculus with 9 samples.

Results

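The genes described here are 10 alpha, beta and gamma tubulins (Tuba1a, Tuba4a, Tubb2a, Tubb2b, Tubb3, Tubb4b, Tubb5, Tubb6, Tubg1 and Tubg2), out of 30050 genes measured on the same arrays. They were chosen by gene symbol, with earlier results of these data known. Each has a transcript cluster (the probes grouped for 1 transcript) that names a single gene. So do 7 further tubulins that are not among the 10, described below. Where a gene has several clusters the rule takes the brightest by mean level, but each of the 10 genes had 1 cluster, so no measured value decided between clusters. Because results were known when the genes were proposed, their differences are given as a description, and their calls are used as support for nothing.

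RNA came from HL-1, an immortalized line derived from mouse atrial heart muscle cells, and was read on 9 Affymetrix arrays, 3 in each of 3 groups. The Con group received phosphate-buffered saline (PBS). The DOX group received 0.3 µM DOX (doxorubicin, an anthracycline that poisons topoisomerase II and damages DNA), and the third group, called DOX_IFNg here, received 0.3 µM DOX with 20 ng/ml interferon gamma (IFN-γ). All groups are 1 cell line. How long the cells were treated is not given in the sources used here, and neither is whether the replicates were separate cultures, so the p-values cover only variation among these 9 arrays, part or all of which may be technical.

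Alpha and beta tubulin form the dimers from which microtubules are built, and the several genes of each type encode near-identical proteins that tissues use in different proportions. Gamma tubulin does not form the wall of the microtubule but sits in a ring complex that starts new ones, mainly at the centrosome. Cells also adjust tubulin mRNA to the pool of free dimers, by a route in which TTC5 binds the emerging tubulin chain and brings in the CCR4-NOT deadenylase. In heart muscle cells the microtubule network carries cargo and bears load.

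Values are log2 intensities of the deposited table, so a difference of 1 is a doubling, and levels of different genes are not compared because each has its own probes. A gene was called higher or lower when its adjusted p was under 0.05 in limma over all 30050 genes. A gene was taken as dim when its mean over the 9 arrays was below 4.69, the 95th percentile of 1749 olfactory, vomeronasal and taste receptor genes. Of the 10 tubulins 9 lay above this limit, and Tubb2b lay below it.

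The 250 bases before the annotated start of 5 of the genes are shown because, of the 7 genes in the promoter table, they had the largest differences in the DOX group, 4 down and Tubb4b up. The sequences are those of RefSeq on GRCm38.p6, and Tubb2b, Tubb6 and Tubg1 had no entry. The build behind the array's own annotation is not given in the sources used here. Capitals mark matches on either strand to 4 motifs: CCAAT (the CCAAT box), GGGCGG (the GC box), TTTGAA (the core of a cell cycle element) and TATAAA (the TATA box). The windows are chr15:98953502-98953751 for Tuba1a, chr1:75219295-75219544 for Tuba4a, chr13:34078009-34078258 for Tubb2a, chr2:25224703-25224952 for Tubb4b and chr17:35838302-35838551 for Tubb5, all read 5′ to 3′ on the minus strand. The annotated Tuba4a gene reaches upstream of its window, so that window lies within the gene.
Tuba1a: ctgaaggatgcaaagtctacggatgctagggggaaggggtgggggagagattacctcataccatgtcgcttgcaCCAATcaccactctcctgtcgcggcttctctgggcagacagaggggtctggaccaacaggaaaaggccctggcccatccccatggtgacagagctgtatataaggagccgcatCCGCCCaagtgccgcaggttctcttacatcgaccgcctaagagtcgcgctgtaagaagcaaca
Tuba4a: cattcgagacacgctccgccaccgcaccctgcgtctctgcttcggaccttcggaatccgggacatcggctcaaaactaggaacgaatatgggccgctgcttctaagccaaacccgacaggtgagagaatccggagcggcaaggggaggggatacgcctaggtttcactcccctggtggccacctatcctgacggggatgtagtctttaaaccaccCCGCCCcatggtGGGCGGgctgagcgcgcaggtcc
Tubb2a: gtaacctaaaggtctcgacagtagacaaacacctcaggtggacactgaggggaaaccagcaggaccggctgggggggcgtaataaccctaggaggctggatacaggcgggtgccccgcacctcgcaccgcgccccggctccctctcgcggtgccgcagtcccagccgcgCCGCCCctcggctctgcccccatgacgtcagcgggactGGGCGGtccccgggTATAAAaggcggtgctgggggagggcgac
Tubb4b: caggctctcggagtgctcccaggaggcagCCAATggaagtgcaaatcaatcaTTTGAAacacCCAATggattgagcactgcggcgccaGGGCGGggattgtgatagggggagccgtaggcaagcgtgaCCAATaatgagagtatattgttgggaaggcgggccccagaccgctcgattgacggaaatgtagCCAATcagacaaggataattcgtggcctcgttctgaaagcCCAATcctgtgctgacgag
Tubb5: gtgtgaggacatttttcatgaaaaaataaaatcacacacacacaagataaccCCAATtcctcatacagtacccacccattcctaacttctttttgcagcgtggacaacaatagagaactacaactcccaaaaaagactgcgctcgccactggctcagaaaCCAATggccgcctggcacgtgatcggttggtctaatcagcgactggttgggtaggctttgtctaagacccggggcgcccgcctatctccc

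The Tubb4b window held 5 CCAAT matches, starting at -221, -188, -122, -59 and -19 (counted from -1 just before the annotated start), besides a GC box match at -162 and the only TTTGAA match among the 7 windows, at -198. Of all 27025 promoters of the same length, 63 (0.233%) held 5 or more CCAAT matches. Tubb5 held CCAAT at -198 and -90 and none of the other 3 motifs. Tuba1a held CCAAT at -176 and a GC box match at -63, Tuba4a GC box matches at -35 and -23, and Tubb2a GC box matches at -81 and -43 with TATAAA at -29. Over the 7 windows, CCAAT lay in 4 (34.5% of all promoters held it), GGGCGG in 5 (32.9%), TTTGAA in 1 (16.3%) and TATAAA in 1 (13.0%). None of these matches overlapped another, and a match is a stretch of letters, not a measured binding site.

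In the DOX group 6 of the 10 tubulins were lower than in Con, 1 was higher and 3 were not called. The lower genes were both alpha tubulins among the 10, the beta tubulins Tubb2a and Tubb5 and both gamma tubulins. The higher gene was the beta tubulin Tubb4b. Of all genes tested, 15.6% were called in this comparison (8.06% higher and 7.53% lower), and 33.0% of the 12148 genes above the dim limit. The Con and DOX arrays did not overlap for 7 of the 10 tubulins, against 32.9% of all genes. The median difference of the 10 genes was -0.50 (range -1.26 to 0.54) on the log2 scale, and that of all genes was -0.01.

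**Figure D1:**
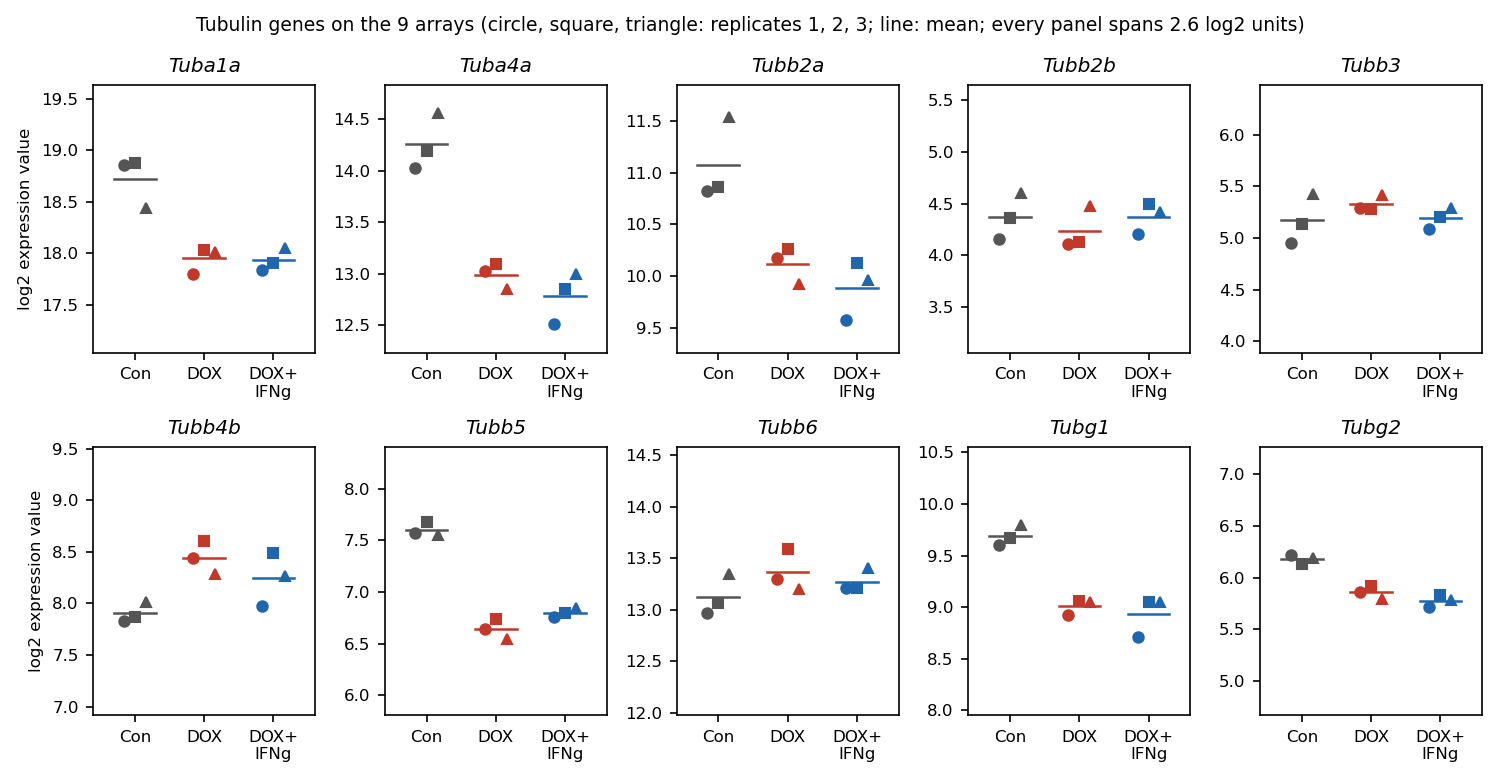
Log2 intensity of the 10 tubulin genes on each of the 9 arrays, 1 panel a gene with its own axis; circles, squares and triangles are replicates 1, 2 and 3 and lines are group means. The Con points of Tuba1a, Tuba4a, Tubb2a, Tubb5, Tubg1 and Tubg2 lie above all points of the other groups, and those of Tubb4b lie below the DOX points.

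Tuba1a encodes the main alpha tubulin of developing neurons and is also used by dividing cells of other tissues. Its log2 intensity was 18.85, 18.88 and 18.44 in Con, 17.80, 18.04 and 18.02 in DOX, and 17.84, 17.90 and 18.06 in DOX_IFNg. Every treated array read below every Con array. The level fell by 0.77 on the log2 scale in DOX (SE 0.13, 95% interval -1.06 to -0.48, 1.71-fold lower, n = 3 a group). It fell by 0.79 in DOX_IFNg (95% interval -1.08 to -0.50).

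Tuba4a, an alpha tubulin that lacks the encoded C-terminal tyrosine of most others, had the largest difference among the 10 genes. Its log2 intensity was 14.02, 14.19 and 14.56 in Con, 13.03, 13.09 and 12.85 in DOX, and 12.51, 12.85 and 13.00 in DOX_IFNg. The lowest Con array lay above the highest treated array. The DOX level fell by 1.26 (SE 0.16, 95% interval -1.63 to -0.90, 2.40-fold lower), and the DOX_IFNg level by 1.47 (95% interval -1.84 to -1.10, 2.77-fold lower).

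Tubb2a is a beta tubulin abundant in neurons. It read 10.83, 10.86 and 11.54 in Con, 10.17, 10.26 and 9.93 in DOX, and 9.57, 10.12 and 9.96 in DOX_IFNg. Con replicate 3 stood above the other Con arrays, and all 3 lay above the treated arrays. Its level fell by 0.96 in DOX (SE 0.21, 1.94-fold lower) and by 1.19 in DOX_IFNg (2.28-fold lower). Without DOX replicate 3 the DOX difference was -0.86 and was no longer called.

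Tubb5 is the beta tubulin of most proliferating cells. Its log2 intensity was 7.57, 7.67 and 7.55 in Con, 6.64, 6.74 and 6.54 in DOX, and 6.75, 6.80 and 6.85 in DOX_IFNg. The 3 groups did not overlap, and the arrays within each lay close together. The DOX level fell by 0.96 (SE 0.06, 95% interval -1.10 to -0.81, 1.94-fold lower) and the DOX_IFNg level by 0.80 (SE 0.06, 95% interval -0.95 to -0.65, 1.74-fold lower).

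Tubb4b, a broadly used beta tubulin that is also prominent in cilia, was the 1 tubulin called higher. It read 7.83, 7.86 and 8.02 in Con, 8.44, 8.60 and 8.28 in DOX, and 7.97, 8.49 and 8.27 in DOX_IFNg. All DOX arrays lay above all Con arrays, while DOX_IFNg replicate 1 lay among the Con arrays. The level was 0.54 higher in DOX (SE 0.13, 95% interval 0.23 to 0.84, 1.45-fold), and the gene was no longer called with any 1 of Con replicates 1 and 2 and DOX replicates 1 and 2 left out (differences 0.46 to 0.54, limma adjusted p up to 0.0977). In DOX_IFNg the difference was 0.34 (95% interval 0.03 to 0.65) and was not called, but without DOX_IFNg replicate 1 it was 0.48 and called higher.

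Tubb6, a beta tubulin whose overexpression disperses microtubules and which is prominent in regenerating muscle, read 12.97, 13.06 and 13.34 in Con, 13.30, 13.59 and 13.20 in DOX, and 13.21, 13.21 and 13.40 in DOX_IFNg. The groups overlapped. The difference from Con was 0.24 in DOX (SE 0.13, 95% interval -0.05 to 0.53) and 0.15 in DOX_IFNg (95% interval -0.14 to 0.44), and neither was called on the deposited values.

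Tubb3, the beta tubulin best known as a marker of neurons, read 4.95, 5.14 and 5.43 in Con, 5.29, 5.28 and 5.41 in DOX, and 5.09, 5.21 and 5.29 in DOX_IFNg. The groups overlapped, and the DOX difference was 0.16 (95% interval -0.11 to 0.42). Of 10 neuronal markers 1 (Gap43) lay above the dim limit and 0 were called by limma in either comparison with Con, with 2 at an unadjusted p under 0.05 in each (summed linear intensity 162 to 171 in Con, 164 to 176 in DOX and 164 to 172 in DOX_IFNg). Tubb2b, a beta tubulin of the developing brain, ranged from 4.10 to 4.60 over the 9 arrays and was not called (DOX difference -0.14, 95% interval -0.46 to 0.18).

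The gamma tubulins Tubg1 and Tubg2 fell together. Tubg1, the form found in most tissues, read 9.61, 9.67 and 9.80 in Con, 8.92, 9.06 and 9.05 in DOX, and 8.71, 9.05 and 9.05 in DOX_IFNg. Its level fell by 0.68 in DOX (SE 0.10, 95% interval -0.91 to -0.45, 1.60-fold lower) and by 0.75 in DOX_IFNg (1.68-fold lower). Tubg2, whose product is found chiefly in brain, read 6.22, 6.13 and 6.19 in Con, 5.86, 5.92 and 5.79 in DOX, and 5.72, 5.83 and 5.78 in DOX_IFNg. It fell by 0.33 in DOX (SE 0.06, 1.25-fold lower) and by 0.41 in DOX_IFNg (SE 0.06, 95% interval -0.53 to -0.28). For both genes every treated array lay below every Con array.

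Of the 6 beta tubulins among the 10 genes, Tubb2a and Tubb5 were called lower in DOX, Tubb4b higher, and Tubb2b, Tubb3 and Tubb6 were not called. The ratio of a pair within each array describes unequal change without setting 1 gene's level against another's. Each pair here sets a gene with a positive DOX difference over 1 called lower, so the direction of the ratio follows from the differences above. Set to a mean of 0 in Con, the log2 ratio of Tubb4b to Tubb5 lay between -0.12 and 0.16 on the Con arrays, between 1.43 and 1.56 on the DOX arrays and between 0.91 and 1.39 on the DOX_IFNg arrays. The mean change was 1.49 in DOX (2.82-fold) and 1.14 in DOX_IFNg (2.20-fold). The mean log2 ratio of Tubb4b to Tubb2a was higher by 1.49 and 1.53, and that of Tubb6 to Tubb5 by 1.19 and 0.95, in the same order. These ratios were not tested, and they were not computed after quantile normalization, which is described below and moved Tubb6 and Tubb2a. A ratio does not show which gene of the pair moved.

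With IFN-γ added to DOX and compared with Con, 6 of the 10 tubulins were lower, 0 higher and 4 not called. The lower genes were those lower in DOX alone, and both comparisons use the same Con arrays. Of all genes 17.4% were called (8.01% higher and 9.41% lower), and 36.7% of those above the dim limit. The 6 lower genes were also those whose arrays did not overlap, against 33.0% of all genes. The median difference of the 10 genes was -0.58. Of the 10, limma called 0 higher, and 7 had an unadjusted p under 0.05 in either direction.

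**Figure D2:**
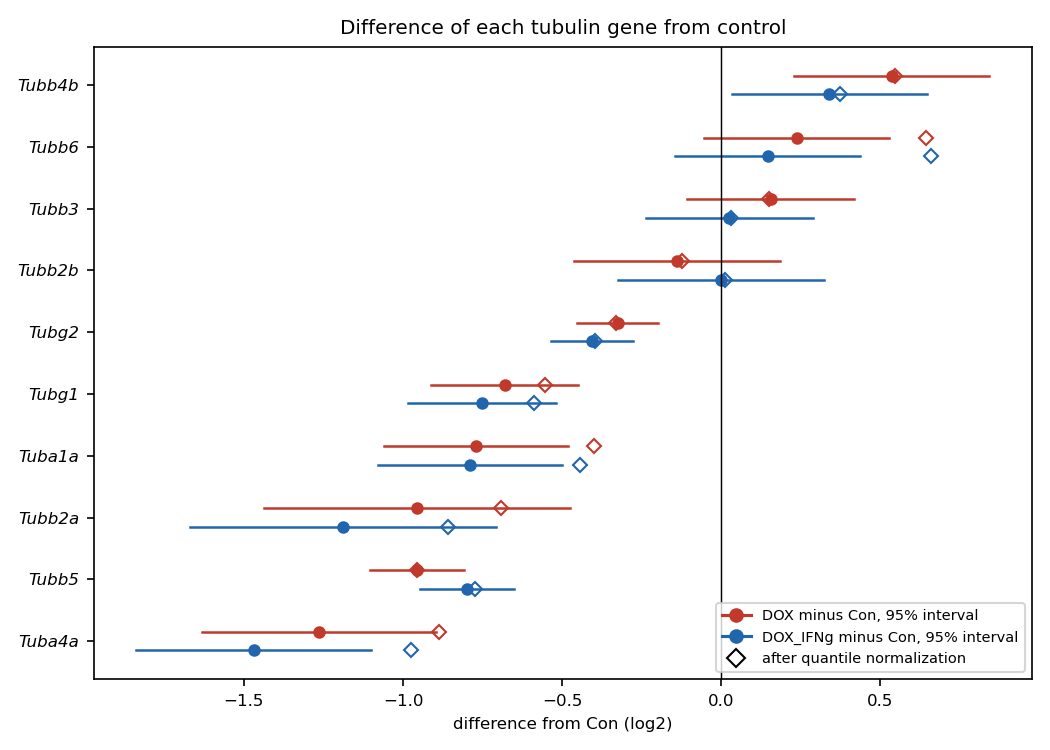
Difference from Con of each tubulin gene in log2 units in DOX and in DOX_IFNg; circles are values as deposited with 95% intervals and open diamonds the same after quantile normalization. Tuba4a lies lowest at -1.26 and -1.47, Tubb4b highest among the deposited values at 0.54 in DOX, and Tubb6 moves from 0.24 to 0.65 in DOX after quantile normalization.

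Between DOX_IFNg and DOX, limma called 0 tubulins and 0 of all 30050 genes (0% called), with 1503 genes and 1 tubulin at an unadjusted p under 0.05. That tubulin was Tubb5, which was 0.16 higher in DOX_IFNg (95% interval 0.01 to 0.30). Its 3 arrays with IFN-γ lay above its 3 arrays with DOX alone, a separation seen for 11.2% of all genes. The differences of the other tubulins lay between -0.23 (Tubb2a, 95% interval -0.71 to 0.25) and 0.14 (Tubb2b). The 95% intervals of the other 9 tubulins included 0. The intervals reached 0.29 to either side of the difference at the median of the 10 genes.

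Bright genes as a group read lower on the treated arrays, and Tuba1a, Tuba4a, Tubb2a and Tubb6 are among the bright genes. Genes with a mean level from 12 to 13 had a median DOX difference of -0.42 (145 genes), and those from 13 to 14 of -0.40 (156 genes). On either side of the level of Tuba1a the medians were -0.87 from 17 to 18 (105 genes, of which 48 held exactly the same difference) and -0.09 from 18 to 20 (93 genes), while genes from 6 to 7 had a median of 0.01 (2317 genes). The level that 99.5% of genes lay below was 17.1, 17.4 and 18.3 in Con and between 16.7 and 17.1 on the treated arrays. Beside genes within 0.5 log2 units of its own mean, Tubb5 had a lower difference than all but 3.95% of 1595 genes, Tuba4a than all but 6.29% of 159, Tuba1a than all but 6.67% of 30, Tubb2a than all but 10.6% of 303, Tubg1 than all but 15.5% of 406 and Tubg2 than all but 18.6% of 3256. Tubb4b exceeded all but 19.4% of 684 genes, and Tubb6 all but 10.3% of 156.

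Quantile normalization, which forces all arrays to 1 distribution, left the sign of each called tubulin as it was but moved the bright ones. The DOX difference became -0.40 for Tuba1a, which lost its call (limma adjusted p = 0.176), and 0.65 for Tubb6, which became called higher (limma adjusted p = 0.0036). In DOX_IFNg the same happened, with -0.44 for Tuba1a (limma adjusted p = 0.125) and 0.66 for Tubb6 (limma adjusted p = 0.0031). The DOX difference became -0.89 for Tuba4a, -0.69 for Tubb2a and -0.55 for Tubg1. For Tubb4b it was 0.55, for Tubb5 -0.96 and for Tubg2 -0.33. Which scaling is nearer to the cells' RNA was not tested.

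**Figure D3:**
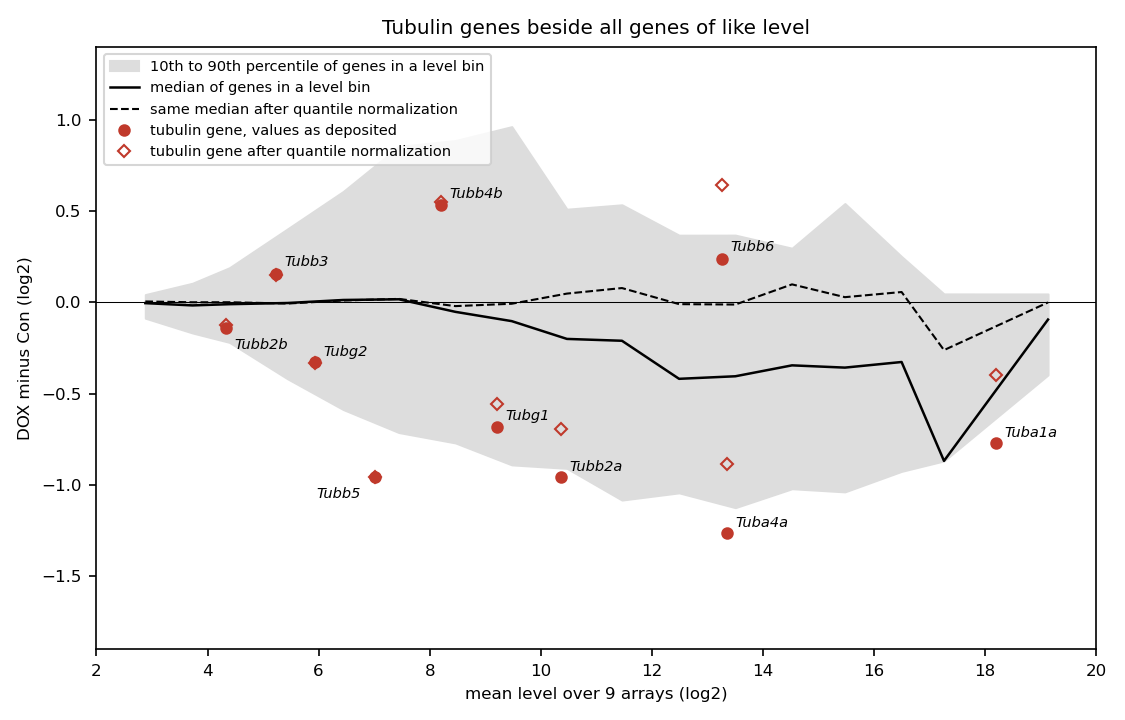
DOX minus Con difference (log2) against the mean log2 level over 9 arrays; the grey band holds the 10th to 90th percentile of genes in each level bin, the solid line their median and the dashed line their median after quantile normalization. Filled circles are tubulin genes as deposited and open diamonds the same genes after quantile normalization. The solid line drops below 0 for bright genes. The filled circles of Tubb5, Tuba4a, Tuba1a and, narrowly, Tubb2a lie below the band.

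The arrays also fell into sets that the treatments did not share evenly. The 3 DOX arrays, DOX_IFNg replicates 1 and 2 and Con replicate 1 all reached the largest deposited value, 19.9315. The other arrays peaked at 19.8161, 19.9079 and 19.9262. Pairs among the arrays that reached 19.9315 held 82 to 186 identical values, against 1 to 17 for all other pairs. What the sets stand for is not given in the sources used here. Both sets held Con and DOX_IFNg arrays, and within them the DOX_IFNg difference was -1.34 and -1.38 for Tuba4a, -0.98 and -0.60 for Tuba1a, and -0.98 and -1.24 for Tubb2a. It was -0.79 and -0.77 for Tubb5, -0.73 and -0.68 for Tubg1, -0.45 and -0.38 for Tubg2, and 0.40 and 0.33 for Tubb4b. All DOX arrays were in the first set, where the DOX difference from the lone Con array was -1.03 for Tuba4a, -0.90 for Tuba1a, -0.71 for Tubb2a, -0.93 for Tubb5, -0.60 for Tubg1, -0.36 for Tubg2 and 0.61 for Tubb4b. With the set as a block, the DOX differences of Tubb4b (0.58, limma adjusted p = 0.0721) and Tubb2a (-0.79, limma adjusted p = 0.0948) were not called.

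Of 10 further tubulin genes 7 were measured by a cluster that names no other gene, and 1 was called in DOX. Tube1, the epsilon tubulin of centrioles, fell by 0.24 (SE 0.05, limma adjusted p = 0.0155) from 4.95 ± 0.06 to 4.71 ± 0.04 (SD, n = 3). It was no longer called with any 1 of Con replicate 2 and DOX replicates 1 and 3 left out (limma adjusted p up to 0.0592). Tuba8, Tubal3, Tubb1, Tubb4a and Tubd1 had differences from -0.14 to -0.05 and were not called. Tuba1c has 2 clusters, and the brighter, used here, read between 19.8 and 19.9 on the arrays, the ceiling of the scale, where a change could not be seen. The other read between 18.38 and 18.58, with its Con and DOX arrays overlapping. Its top value, 18.5848, was identical on Con replicate 1, DOX replicate 1 and DOX_IFNg replicate 2, so a change may be hidden there as well. Tuba1b, Tuba3a and Tuba3b had no cluster of their own, and Tuba1b is the neighbour of Tuba1a. Their 3 shared clusters were outside the fit. The cluster of Tuba1b and Gm5620 read 15.97 to 16.14 in Con and 15.69 to 15.87 in DOX. Those of Tuba3a and Tuba3b read 6.54 to 6.91 and 5.58 to 5.67 in Con, and 6.10 to 6.34 and 5.25 to 5.41 in DOX. In each the Con and DOX arrays did not overlap, as for 32.9% of all genes, and the differences were not tested.

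Near-identical copies can share probes, so the values of a gene and its pseudogene may not be separate. The cluster of Tubb4b-ps1, named here after its values were seen, went from 12.82 ± 0.09 in Con to 13.54 ± 0.25 in DOX (difference 0.72, SE 0.15, limma adjusted p = 0.0141). Over the 9 arrays it followed Tubb4b with r = 0.968. Tubb2a-ps2, also named after its values were seen, fell by 0.59 (limma adjusted p = 0.0239) and followed Tubb2a with r = 0.897. How far these clusters read the parent genes was not tested.

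The genes that fold, nucleate, bind, modify and move along tubulin were read in 11 further lists. With the other tubulins they come to 151 measured genes, of which 14 rose, 45 fell and 92 were not called in DOX. That is 39.1% called, beside 15.6% of all genes. Of the 110 above the dim limit 55 (50%) were called, beside 33.0% of all genes above it, and the lists were chosen with earlier results known. The median difference of the 151 genes was -0.07, against -0.01 for all genes. In DOX_IFNg 11 rose and 47 fell (38.4% called, beside 17.4% of all genes). Above the dim limit 48.2% were called there, beside 36.7% of all genes above it. No list was tested as a set.

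The folding cofactors, which assemble the alpha-beta dimer after the chaperonin, split: of 7 measured, 3 fell and 2 rose. Tbcb, which binds alpha tubulin, fell by 0.80 (SE 0.13, limma adjusted p = 0.0036). Tbca, which binds beta tubulin, fell by 0.73 (SE 0.08, limma adjusted p = 0.0005), and Tbcd, its partner in the next step, by 0.64 (SE 0.06). Tbce, which binds alpha tubulin, rose by 0.54 (SE 0.09, limma adjusted p = 0.0044). The other rise, in Tbcel, was lost without any 1 of 5 arrays.

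Of the CCT chaperonin, the double ring that folds tubulin and actin, 4 of 7 measured subunits fell and 0 rose (5 had an unadjusted p under 0.05 in limma). Cct3 fell by 0.58 (SE 0.09, limma adjusted p = 0.0024), Cct5 by 0.56, Tcp1 by 0.47 and Cct2 by 0.41. Prefoldin, which delivers chains to the chaperonin, had 1 of 5 measured subunits called (20%, beside 15.6% of all genes). Pfdn5 fell by 0.72 (SE 0.09, limma adjusted p = 0.0011).

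Of 9 measured genes of tubulin mRNA autoregulation 2 fell in DOX (22.2% called, beside 15.6% of all genes). All 9 lay above the dim limit, where 33.0% of all genes were called. Ttc5, the factor that recognises the emerging tubulin chain, differed by -0.06 (limma adjusted p = 0.656). Cnot6, a deadenylase subunit of CCR4-NOT, fell by 1.36 (SE 0.19, limma adjusted p = 0.0017). Cnot2, a scaffold subunit, fell by 0.39 (limma adjusted p = 0.0254), but was not called with any 1 of Con replicates 1 and 2 and the DOX arrays left out (limma adjusted p up to 0.0828), and after quantile normalization the difference was -0.12.

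Gamma tubulin works within a ring complex of further proteins. Of 13 measured genes of the complex and its recruiters 2 fell and 0 rose, with 7 at an unadjusted p under 0.05 in limma. The share called, 15.4%, was near the 15.6% of all genes. Nme7, a subunit with kinase activity, fell by 0.34 (SE 0.05, limma adjusted p = 0.0018). Nedd1, which brings the complex to the centrosome and spindle, fell by 0.24, a call lost without Con replicate 1 or 2, any 1 DOX array or DOX_IFNg replicate 2 (limma adjusted p up to 0.0987). The core subunits were not called in DOX on the deposited values: the differences were -0.09 for Tubgcp2, -0.06 for Tubgcp3, -0.24 for Tubgcp4, 0.05 for Tubgcp5 and 0.17 for Tubgcp6. Tubgcp4 was called lower in DOX after quantile normalization (limma adjusted p = 0.0466), without dim genes (0.0320) and with array weights (0.0409), and it was called lower in DOX_IFNg (-0.28, limma adjusted p = 0.0243), though not without Con replicate 1 or DOX_IFNg replicate 1 or 2 (limma adjusted p up to 0.0848). Of augmin, which recruits the ring complex to existing microtubules, 4 of 6 measured subunits fell. Haus7 fell by 0.86 (SE 0.06, limma adjusted p = 4.19e-05), Haus6 by 0.65 and the dim Haus1 by 0.41. The call of Haus4 (-0.26, also dim) was lost when any 1 array other than Con replicate 1 was left out (limma adjusted p up to 0.115).

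Among plus-end and lattice binding proteins, 5 of 20 measured genes fell and 2 rose. The share called was 35%, beside 15.6% of all genes and 33.0% of those above the dim limit. Clasp1, which stabilises growing ends, fell by 1.10 (SE 0.08, limma adjusted p = 4.46e-05) and Dclk1, a doublecortin family kinase, by 0.76. Map6, which protects microtubules from cold, fell by 0.52, but by 0.20 and without a call when all its clusters were averaged (limma adjusted p = 0.105). Mapre3, an end-binding protein used in muscle and neurons, rose by 0.97 (SE 0.14, limma adjusted p = 0.0021). Of 11 destabilizing and severing proteins 5 fell and 1 rose. The rise was in Katna1, a severing enzyme subunit (0.26), and it was not called with any 1 of Con replicates 2 and 3 and the DOX arrays left out (limma adjusted p up to 0.0986). Kif2c, a depolymerizing kinesin of mitosis, fell by 1.30 (SE 0.07), Stmn1, which sequesters tubulin dimers, by 0.88 (SE 0.10), Fignl1 by 0.54 and the severing enzyme Spast by 0.43.

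Of 22 measured enzymes that modify tubulin 5 fell and 2 rose. The share called was 31.8%, beside 15.6% of all genes and 33.0% of those above the dim limit. Ttll4, a glutamylase, fell by 0.70 (SE 0.06, limma adjusted p = 9.08e-05), Tpgs2, a subunit of another glutamylase, by 0.67, and Vash2, a detyrosinating enzyme, by 0.61. Sirt2, a deacetylase that acts on alpha tubulin, rose by 0.62 (SE 0.09, limma adjusted p = 0.0015).

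The medians of interphase motors and spindle motors lay on opposite sides of 0, a difference that was not tested. Of 26 measured interphase motor genes 7 rose and 1 fell, with a median of 0.11. This is 30.8% called, beside 15.6% of all genes. Of the 26, 21 lay above the dim limit, where 33.0% of all genes were called. With the array set as a block, 3 rose. Dctn2, a dynactin subunit, rose by 0.88 (SE 0.16, limma adjusted p = 0.0069), and Dync1li2, a dynein light intermediate chain, by 0.72 (SE 0.10, limma adjusted p = 0.0016). Dctn3 rose by 0.46 (limma adjusted p = 0.0032). The rise of Dync1li1 (0.47) was lost without Con replicate 1 or 3, DOX replicate 1 or 2 or DOX_IFNg replicate 2 (limma adjusted p up to 0.125), and with 1 array left out the number of motors that rose lay between 4 and 7. Of 18 spindle motors and assembly factors 12 fell and 0 rose (15 had an unadjusted p under 0.05 in limma), with a median of -0.53. The kinesins Kif20a and Kif22 fell by 1.51 and 1.47, Kif4 by 1.38 and Kif11 by 1.14.

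**Figure D4:**
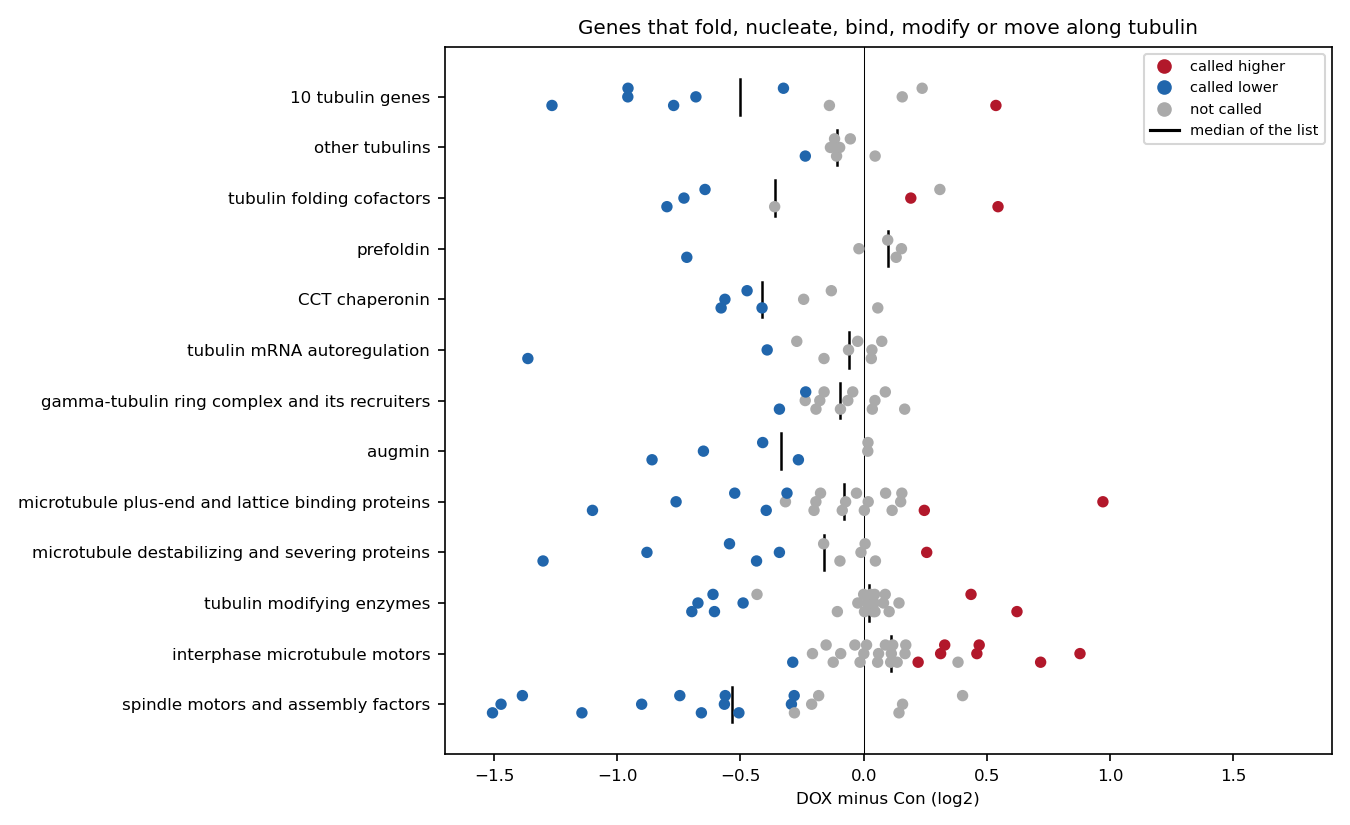
DOX minus Con difference (log2) of each measured gene in the tubulin list and in 12 further lists, coloured by call. The 12 are the other tubulins and the lists of genes that act on tubulin, and bars are list medians. Spindle motors have a median of -0.53 with 12 of 18 called lower, and interphase motors a median of 0.11 with 7 of 26 called higher. Of all genes, 7.53% were called lower and 8.06% higher.

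Markers of dividing cells also fell. All 7 measured markers were lower in both treated groups (7 of 7), and their summed linear intensity was 1090 to 1110 in Con, 274 to 319 in DOX and 279 to 303 in DOX_IFNg. The share of all genes called lower was 7.53% in DOX and 9.41% in DOX_IFNg. Among genes above the dim limit, 33.0% and 36.7% were called in either direction. Fibroblast markers fell in 4 of 7 (summed intensity 213000 to 254000 in Con and 103000 to 113000 in the treated groups). After quantile normalization Col1a1 was not called (limma adjusted p = 0.0522 in DOX and 0.0772 in DOX_IFNg). Postn went the other way in DOX_IFNg (0.54), not called in the main fit but called higher without dim genes (limma adjusted p = 0.0391). Of 9 skeletal muscle markers 5 lay above the dim limit (all but Myf5, Myf6, Tnni1 and Ckm), against 3 of 12 cardiomyocyte markers. In DOX 5 of the 9 fell and 1, Myod1, rose (summed intensity 812 to 965 in Con, 453 to 520 in DOX and 406 to 460 in DOX_IFNg). The rise of Myod1 was lost without Con replicate 1 or 3 or DOX replicate 1 or 2 (limma adjusted p up to 0.0715). Of 12 measured cardiomyocyte markers 9 lay below the dim limit, among them Myh6, the main heart myosin of adult mice, and Myl7 and Nppa, which mark atrial muscle cells. Summed, the cardiomyocyte markers read 454 to 505 in Con, 332 to 345 in DOX and 326 to 327 in DOX_IFNg, and the label's cell type was thus weakly marked. The summed fall was not shared by most of the list. In DOX 1 of the 12 was called lower and 0 higher (median difference 0.01, lowest -1.24), and in DOX_IFNg 2 were called lower and 0 higher. Markers of endothelium (6), immune cells (7) and ciliated cells (5) were all below the dim limit, and limma called 0 of them, with 0 at an unadjusted p under 0.05 as well. In bulk RNA, fewer cells of a type and less RNA per cell cannot be told apart, and the part of these markers in the tubulin differences was not tested.

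Among 7634 protein-coding genes above the dim limit, those whose values over the 9 arrays were most like Tubb4b were Ube3b (r = 0.988), Tor1b (0.974) and Dctn1 (0.973). Those most like Tuba4a were Sbf1 (0.997), Parva (0.996) and Kdelr3 (0.995). The points share their treatment groups, and with each group's mean removed the 6 correlations lay between 0.913 and 0.977. They are a description of 9 arrays and carry no test.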

How the data were processed

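The authors deposited log2 expression values per transcript cluster and array, made with RMA (background correction, normalization and probe summary) per the submitters' processing notes. Its version, its settings and the genome build are not given in the sources used here, and the range of the values (2.29 to 19.9) is the basis for reading them as log2. Array medians over all clusters lay between 4.08 and 4.17. Symbols came from the platform annotation: of 65527 clusters, 30376 list 1 symbol, 2117 several (3 of them tubulins) and 33034 are unlisted. Clusters with 1 symbol gave 30050 genes, by the cluster with the highest mean where a gene had several.

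A model over all 9 arrays was fitted to the 30050 genes with limma 3.58.1 in R 4.3.3 (lmFit, eBayes, two-sided, Benjamini-Hochberg over all genes of a comparison, called under 0.05), and it was tested on simulated data. No filter on low values was used. 3 arrays a group limit the precision. Both comparisons with Con share its arrays.

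The 10 tubulins and all lists were chosen with earlier results of these data known. Named are the 10 genes, the other tubulins, in each list up to 4 called genes with the largest DOX differences whose arrays do not overlap, and the 3 genes most like Tubb4b and most like Tuba4a. Other genes were named after their values were seen (the pseudogenes), as background to a count, or as markers. Lists were the other tubulins, folding cofactors, prefoldin, the CCT chaperonin, mRNA autoregulation, the gamma-tubulin ring complex, augmin, plus-end and lattice binding, destabilizing and severing proteins, modifying enzymes, interphase motors and spindle motors, with markers of 8 cell types or states. Alternatives were the normalization, filters, fits, the choice of cluster, the replicate number as a block and leaving out each array. Array sets were added after seeing the data.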

Additional observations from a re-analysis of the deposited data

How the results depend on the processing

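Over 18 alternatives, of which 2 (the array sets) were chosen after seeing the data, no called tubulin changed sign: 16 of 234 values of called tubulins lost their call. In DOX minus Con, the count of tubulins called higher (1) became 2 after quantile normalization, where Tubb6 joined Tubb4b, 0 with the array set as a block and 0 in the 6 arrays of the first set alone. It lay between 0 and 1 when 1 array was left out. The count called lower (6) was 3 in the first set alone, where the lone Con array is assumed to vary like the other groups, and in DOX_IFNg minus Con it was 3 there as well; Tubb2a, Tubg1 and Tubg2 lost their calls in both. In DOX_IFNg minus Con the count called higher (0) was 1 after quantile normalization (Tubb6) and 1 with array weights (Tubb4b), and between 0 and 1 with 1 array left out. Of the genes that act on tubulin, the 14 that rose in DOX became 7 with the array set as a block and 4 in the first set alone, and between 9 and 15 with 1 array left out. With the replicate number as a block, 1 tubulin was higher and 6 lower in DOX, and 0 and 6 in DOX_IFNg. Arrays of 1 number deviated together in no regular way (correlations from -0.159 to 0.358), so the numbers were not read as pairs. Probe signal limits what can be seen of Tubb2b, which lay near the signal of genes not used by these cells.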

Other observations

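In the RefSeq annotation Tubg1 and Tubg2 are neighbours with 0 genes between them, and both fell in each treated group. Tubb2a and Tubb2b have 1 gene between them, with 0 protein-coding genes, and Tubb2a fell while the dim Tubb2b was not called. Tuba1a and Tuba1c have 4 genes between them, 0 of them protein coding.

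Con replicate 3 had the highest Con value in 7 of the 10 tubulins, against 43.3% of all genes, and Con replicate 1 had the lowest in 7 of the 10, against 39.1%. These counts describe 3 arrays and were not tested.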
